A study of Mus musculus with 2 samples.

Results

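Malat1 and Neat1 are neighbouring genes on mouse chromosome 19 that are transcribed into long non-coding RNAs. The regions described here are those of 2 ChIP-seq lists, one for Etv4 and one for Etv5, that lie inside Malat1 or Neat1 or within 50 kb of either gene. There were 26 such regions among 13636 in the Etv4 list and 11 among 8297 in the Etv5 list. They were set against all regions from 5000001 to 6000000 of chromosome 19, of which there were 70 for Etv4 and 33 for Etv5. The locus was selected on the density of regions there in these same lists, so the densities and covered shares below are descriptions and were not tested.

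Both libraries came from EpRas cells, a mouse mammary gland epithelial line (EpH4) transformed with oncogenic H-Ras, grown in medium with 4% serum and given TGF-β3 at 1 ng/ml for 1.5 h. Etv4 was precipitated with a rabbit polyclonal antibody and Etv5 with a mouse monoclonal antibody, and the groups differed in nothing else that the labels give. Ras transformation and TGF-β were thus common to both, and untreated or parental cells were not analysed here. ChIP-seq sequences the DNA fragments that an antibody recovers from crosslinked chromatin, and each list gives the positions at which the authors called an enrichment of reads. With 1 library per antibody there was no replicate, so no replicate error stands behind a difference between the lists. The lists hold no read counts, so depth is unknown, and the longer Etv4 list can reflect a deeper library. Regions were called without an input library, and the part of open or heavily transcribed chromatin in them was not tested.

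Etv4 and Etv5 belong to the ETS transcription factors, which bind DNA with a GGAA core. Malat1 RNA is an abundant nuclear transcript that gathers in nuclear speckles, bodies rich in splicing factors. Neat1 is transcribed from a single start as a short and a long form, and the long form is the architectural RNA around which paraspeckles assemble. Both RNAs are known as broadly and strongly expressed transcripts in mammalian cells, and neither encodes a protein. RNA levels were not used here.

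In the annotation of the GRCm38 (mm10) assembly, Malat1 (ENSMUSG00000092341) extends over 6.98 kb at chr19:5795690-5802672 and Neat1 (ENSMUSG00000092274) over 20.8 kb at chr19:5824708-5845478. Both are annotated as lincRNA on the minus strand, each with an unspliced transcript over the whole gene. Transcription therefore runs towards lower positions, and the end of Neat1 lies 22.0 kb upstream of the start of Malat1. A region inside either gene lies in an exon of the full-length transcript.

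Etv4 regions filled most of Malat1 and the start-side part of Neat1. They covered 82.0% of Malat1 and 38.0% of Neat1, with 6 regions overlapping each gene. Etv5 regions covered 4.30% of Malat1 and 0.669% of Neat1, with 1 region over the start of each gene. Among all 23409 protein-coding and long non-coding genes of at least 5 kb, 22.8% overlapped any Etv4 region and 15.2% overlapped any Etv5 region. At least 30% of the gene was covered in 0.171% of these genes (40 genes) for Etv4 and in 0.0171% (4 genes) for Etv5. By the share covered by Etv4, Malat1 stood in place 5 and Neat1 in place 26, whereas by the share covered by Etv5 they stood in places 486 and 2364.

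**Figure D1:**
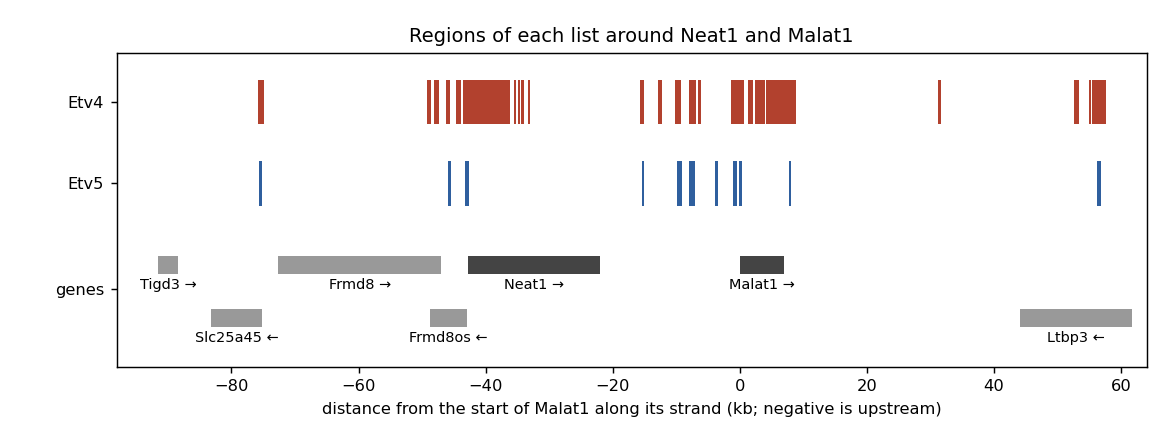
Regions of the Etv4 list (top row) and the Etv5 list (second row) within 50 kb of Malat1 or Neat1, drawn to scale against the distance in kb from the start of Malat1 along its strand. Below them are Malat1, Neat1, Frmd8os, Frmd8, Slc25a45, Tigd3 and Ltbp3, with arrows for their direction. The 26 Etv4 regions gather over Malat1 and the start-side part of Neat1, while the 11 Etv5 regions lie mostly upstream of Malat1 and only 2 of them overlap either gene.

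The promoter of Malat1 is shown because it is the stretch at this gene that both lists covered. It comprises the 250 bases before and the 50 bases after the start in the RefSeq table for GRCm38.p6 (chr19:5802623-5802922, minus strand), written 5′ to 3′ with the ETS core GGAA or its reverse complement TTCC in capitals.
Malat1 promoter: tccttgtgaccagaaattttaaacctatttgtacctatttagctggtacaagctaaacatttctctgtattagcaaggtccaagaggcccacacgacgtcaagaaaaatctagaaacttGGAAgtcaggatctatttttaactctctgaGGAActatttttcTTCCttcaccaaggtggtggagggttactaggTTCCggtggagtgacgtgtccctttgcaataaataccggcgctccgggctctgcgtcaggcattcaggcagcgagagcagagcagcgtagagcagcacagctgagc
The Etv4 list covered 100% of this sequence and the Etv5 list 81.7%. It held 4 GGAA cores on either strand, and 46.3% of the 32851 promoters of the same length in the table held at least as many. The longer ETS pattern, CAGGAAGT or CCGGAAGT on either strand, had no match in it and occurred in 7.07% of all promoters.

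The stretch common to the Etv4 and Etv5 regions over the start of Malat1 was 495 bp long, and the 200 bases around its midpoint (chr19:5802521-5802720, minus strand) reach from the promoter into the transcript. They are printed without capitals.
Start of Malat1, both lists: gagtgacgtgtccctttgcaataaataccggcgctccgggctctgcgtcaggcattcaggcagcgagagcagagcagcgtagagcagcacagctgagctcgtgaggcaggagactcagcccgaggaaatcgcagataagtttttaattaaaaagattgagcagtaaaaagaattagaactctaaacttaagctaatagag
It overlaps the promoter above and held 1 GGAA core and no match to the ETS or AP-1 patterns.

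The ETS pattern was found once in the Etv4 regions inside Neat1 and once in the Etv4 region that runs past the end of Malat1. These sites are shown with 20 bases on either side, the pattern in capitals.
Past the end of Malat1 (chr19:5794208-5794215, plus strand): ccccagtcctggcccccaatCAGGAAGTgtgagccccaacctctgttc
Inside Neat1 (chr19:5841819-5841826, minus strand): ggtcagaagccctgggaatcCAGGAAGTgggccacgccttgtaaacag
The first lies 8.46 kb downstream of the start of Malat1 and thus beyond its annotated end, and the second 3.66 kb into Neat1. Another 2 sites lay in Etv4 regions near the genes but outside both, and they are shown because they complete the matches within the Etv4 regions of this locus.
Upstream of Malat1 (chr19:5808793-5808800, plus strand): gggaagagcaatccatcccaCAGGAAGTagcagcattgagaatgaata
Upstream of Neat1 (chr19:5846635-5846642, plus strand): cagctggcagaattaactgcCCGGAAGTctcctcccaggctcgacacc
The last is the only match to the stricter form CCGGAAGT in the 26 Etv4 regions, and it lies 1.16 kb before the start of Neat1. None of the 4 sites was in an Etv5 region.

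Over Malat1, the Etv4 regions formed a nearly unbroken series from upstream of the start to beyond the end. In the direction of transcription, the first region (chr19:5802057-5804035, 1.98 kb) began 1363 bp upstream of the start and crossed it. It was followed by regions of 816, 304, 1139 and 1255 bp that lay wholly within the gene. The last region (chr19:5793786-5797287, 3.50 kb) crossed the end and stopped 1904 bp past it. The gaps between these 6 regions measured 614, 312, 108, 152 and 69 bp in the same order, and were widest next to the start. In the 3.49 kb next to the end, 93.7% was covered, and in the 3.49 kb next to the start 70.4%. Stretches of the length of the gene directly before and after it were covered to 26.1 and 27.3%, and that cover came mostly from the regions that cross the borders.

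The single Etv5 region inside Malat1 (chr19:5802373-5802867) lay over the start and reached 195 bp upstream of it and 300 bp into the gene. It was contained in the first Etv4 region, which also held a separate Etv5 region (chr19:5803187-5803711) upstream of the start. The rest of the gene, 6683 bp, carried no Etv5 region. A further Etv5 region of 315 bp (chr19:5794602-5794916) lay 774 bp past the end, inside the longest Etv4 region of the gene. Of the 36-base sequences of that small region, 20% had further copies in the genome, the highest share among all regions of the locus. The Etv5 list covered 29.8% of the 10 kb upstream of Malat1, close to the 35.8% covered by Etv4, but 0% of the 3.49 kb next to the gene end, where Etv4 covered 93.7%.

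Over Neat1, the Etv4 regions lay in the start-side 10.4 kb only. That part was covered to 76.0%, and the end-side 10.4 kb to 0%. The longest region of the locus (chr19:5838901-5844294, 5.39 kb) lay wholly within Neat1, and 10 regions of the whole Etv4 list were longer. A gap of 26 bp separated it from the region over the start (chr19:5844321-5846201), which extended 723 bp upstream. Towards the gene end followed 4 regions of 309, 360, 372 and 300 bp, of which the last ended 11.0 kb before the end of Neat1.

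Cover fell off in steps along Neat1. In bins of 1 kb counted from the start, 97.4 to 100% of each bin was covered up to 6 kb. The next 4 bins were covered to 57.8, 42.5, 61.6 and 30%, and no bin between 10 kb and the end of the gene held an Etv4 region. The annotated short transcript of Neat1 (3.17 kb, chr19:5842307-5845476) was covered to 99.2%, and the remainder of the gene, which only the long form contains in full, to 27%. The border of the cover thus did not fall at the end of the short transcript but further downstream. Copied sequence was scarce in both parts of Neat1: 0.464% of 36-base sequences in the start-side part and 2.30% in the end-side part had more than 1 copy in the genome.

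**Figure D2:**
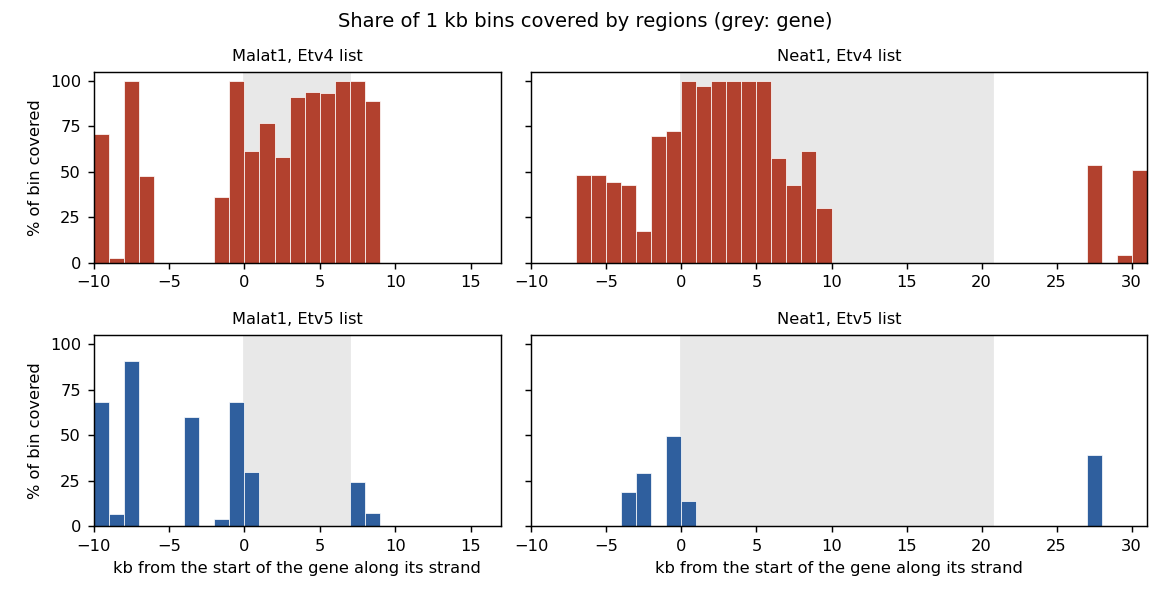
Percentage of each 1 kb bin covered by Etv4 regions (upper panels) and Etv5 regions (lower panels), against the distance in kb from the gene start along the strand, for Malat1 (left) and Neat1 (right), with the annotated gene in grey. Etv4 cover runs through Malat1 and past its end but stops within 10 kb of the start of Neat1, and Etv5 cover lies at the starts and outside the genes.

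Etv5 reached Neat1 only at its start. The region (chr19:5845340-5845975, 636 bp) began 497 bp upstream and extended 139 bp into the gene, and the other 20632 bp of Neat1 held no Etv5 region. It lay inside the Etv4 region over the same start. It also covered the start of Frmd8os, an antisense gene that begins 145 bp away on the other strand, so both lists covered a pair of divergent starts.

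The regions over the genes differed widely in their rank and length. Each region carries a number that the files do not explain, and low numbers fall on long regions. At Malat1, the Etv4 region over the start was within the first 1.78% of the list by number and the region past the end within the first 3.11%. The 304-bp region in the middle of the gene stood at 98.2%. At Neat1, the regions of 5.39 and 1.88 kb stood at 5.53 and 6.15%, and the 4 short ones between 77.0 and 99.5%. The regions in the first 50% of the list by number alone covered 77.7% of Malat1 and 31.5% of Neat1. The Etv5 regions over the starts of Malat1 and Neat1 stood at 66.4 and 49.8% of their list and were not among its early regions.

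**Figure D3:**
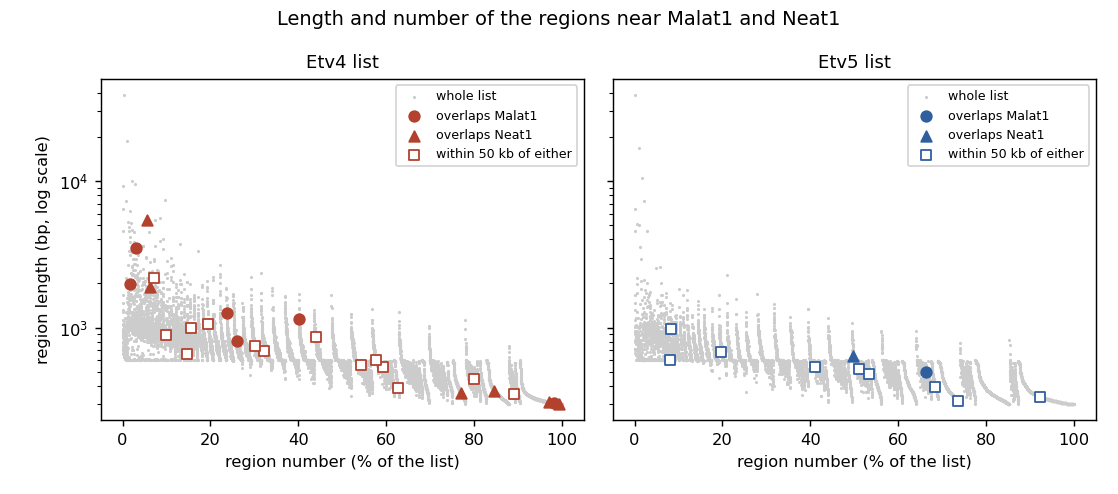
Region length in bp (log scale) against region number as a percentage of the list, for the Etv4 list (left) and the Etv5 list (right), with the whole list in grey and the 26 and 11 regions of the locus in colour. Etv4 regions over the genes are spread from 1.78 to 99.5% of the list, and the 2 Etv5 regions over the genes lie at 49.8 and 66.4%.

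Some other genes showed a covered share of the same kind. Among the genes nearest to Malat1 in the plane of both shares was Ptgs2, which encodes cyclooxygenase-2, with 76.9% of the gene covered by Etv4 and 0% by Etv5. It was followed by Gm39556 (70.7 and 6.98%), the snoRNA host gene Snhg3 (63.6 and 0%) and Rab26 (56.2 and 11.2%). The genes nearest to Neat1 were the histone H3.3 gene H3f3b (38.0 and 0%), S100a6 (39.4 and 0%), Gm42031 (36.2 and 0%), Tgif1 (39.4 and 3.58%) and Eif4a2 (41.6 and 0%). Likeness was the distance between the shares in 2 libraries and says nothing about a common function.

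The first 3 genes by the share covered by Etv4 were Gm10717 and Gm26870 (100% each) and Sfi1 (96.9%). In these 3 the Etv5 list also covered 93.9 to 100%, and the single region over Gm10717 and Gm26870 consisted to 90.7% of 36-base sequences with more than 1 copy. In Sfi1 the median share of such sequences was only 12.8% in its Etv4 regions and 10.5% in its Etv5 regions. Gm26525, in place 10, was covered to 52.8% by Etv4 and 40.6% by Etv5, and the median share of copied sequence in its Etv4 regions was 98.8%. In Malat1 that median was 0%. Nr1d1, in place 5 by Etv5 share, which encodes the nuclear receptor Rev-erbα, was covered to 26.2% by Etv5 and 25.7% by Etv4, an even cover unlike that of Malat1 or Neat1. Of the 40 genes with at least 30% covered by Etv4, 13 had no Etv5 region, 14 had under 10% covered by Etv5 and 13 had 10% or more. Of these 40 genes, 29 were shorter than 10 kb and 5 were 20 kb or longer. Neat1 was one of the 5, beside Pmepa1 (52.2% by Etv4), AL805899.1 (40%), Sfi1 and Gm26870.

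**Figure D4:**
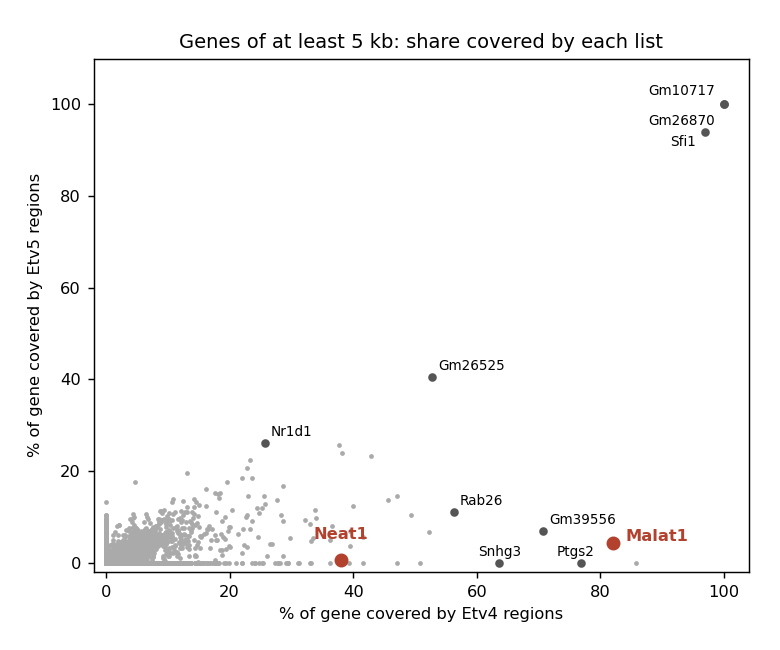
Percentage of each gene covered by Etv5 regions against the percentage covered by Etv4 regions, for 23409 genes of at least 5 kb, with Malat1 and Neat1 in red and some genes of large share named. Malat1 (82.0 and 4.30%) and Neat1 (38.0 and 0.669%) lie far to the right along the lower edge, apart from Gm10717, Gm26870 and Sfi1, which both lists covered almost completely.

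The 22.0 kb between Neat1 and Malat1 held 3 of the 4 pairs in which at least 50% of both regions was common. Upstream of Malat1, Etv4 regions lay at chr19:5808773-5809221, chr19:5809645-5810699, chr19:5811963-5812821, chr19:5814970-5815523 and chr19:5817778-5818317, between 6.10 and 15.1 kb from the start. Of these 5, the regions starting at 5809645, 5811963 and 5817778 overlapped Etv5 regions, at chr19:5809767-5810740, chr19:5811801-5812483 and chr19:5817731-5818122. In the closest pair, 933 bp were common to both, or 88.4% of the Etv4 region and 95.8% of the Etv5 region, and the borders differed by 122 and 41 bp. This pair stood at 19.4% of the Etv4 list and 8.20% of the Etv5 list by number. No region of either list lay in the 6.39 kb between chr19:5818317 and the end of Neat1.

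One Etv5 region near the genes did not overlap an Etv4 region. It lay 3.38 kb upstream of Malat1 (chr19:5806047-5806644), and the nearest Etv4 regions were 2011 bp away on the side of Malat1 and 2128 bp away on the other side. It had the lowest number of the 11 Etv5 regions (8.04% of the list), and in the first 829 Etv5 regions by number 2.53% overlapped no Etv4 region. The 200 bases around its midpoint (chr19:5806246-5806445, minus strand) are shown because the region was particular to the Etv5 list at this locus, with GGAA or TTCC in capitals.
Upstream of Malat1, Etv5 list alone: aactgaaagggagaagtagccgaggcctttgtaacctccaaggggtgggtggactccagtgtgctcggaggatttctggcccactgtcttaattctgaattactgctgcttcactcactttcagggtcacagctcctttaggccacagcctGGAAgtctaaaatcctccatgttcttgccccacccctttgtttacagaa
They contained 1 GGAA core and no match to the ETS or AP-1 patterns. The whole region contained 13 GGAA cores and no ETS match.

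Of the 26 Etv4 regions, 9 overlapped an Etv5 region (34.6%, exact 95% binomial interval 17.2 to 55.7%), beside 37.8% in the whole Etv4 list. Of the 11 Etv5 regions, 10 overlapped an Etv4 region (90.9%, interval 58.7 to 99.8%), beside 63.2% in the whole Etv5 list. Both intervals contain the value of the whole list, and they are wide at 26 and 11 regions. The intervals cover counting error only and treat neighbouring regions as independent. In 6 of the 10 overlapping pairs the Etv5 region lay wholly inside the Etv4 region. Requiring that at least 50% of both regions be common lowered the Etv5 share to 36.4%. In the rest of the stretch of 1 Mb, overlap with the other list was found for 43.2% of Etv4 regions (interval 28.3 to 59.0%). For Etv5 regions there it was 90.9% (interval 70.8 to 98.9%). All 33 Etv5 regions of the stretch, which include those of the rest, gave 90.9% (interval 75.7 to 98.1%). Both values are higher than the 63.2% of the whole list. The locus was selected on the density of regions in these same lists, so this difference is a description and was not tested.

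The genes around the pair were covered to differing degrees. Frmd8os (chr19:5845623-5851388) was covered to 47.1% by 5 Etv4 regions and to 14.5% by 2 Etv5 regions. One of these Etv5 regions (chr19:5848184-5848668) overlapped an Etv4 region 2.83 kb upstream of Neat1. Frmd8, which encodes a FERM domain protein and overlaps Frmd8os, held 2 Etv4 regions (5.53% covered), both within 5.82 kb of Neat1, and no Etv5 region. Further upstream, Slc25a45, of the mitochondrial carrier family, was covered to 8.71% by Etv4 and 4.18% by Etv5, and the Etv4 region lay over its start. Tigd3 had no region of either list.

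Downstream of Malat1, the 22.3 kb directly past its Etv4 cover were free of regions in both lists. Further away, Ltbp3, which encodes a latent TGF-β binding protein, was covered to 28.7% by Etv4 and 9.07% by Etv5. It reaches past the limit of 50 kb, and 3 of its 4 Etv4 regions and 1 of its 2 Etv5 regions lay within it. Small RNA genes annotated inside or beside the pair (Gm27694, Gm27533, Gm27505, Gm28006) lie in covered parts of Malat1 and Neat1, and Gm27702, which lies directly past the end of Neat1, had no region. Of the 26 Etv4 regions, 12 overlapped Malat1 or Neat1, 9 overlapped another gene and 5 were intergenic. Of the 11 Etv5 regions, 2 overlapped the pair, 3 overlapped another gene and 6 were intergenic.

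The window of 150 kb around the genes held a large part of the regions of the stretch. It made up 15.0% of the 1 Mb but held 37.1% of the Etv4 regions and 44.5% of the base pairs they covered, and 33.3% of the Etv5 regions with 30.3% of the covered base pairs. Etv4 regions numbered 17.4 per 100 kb in the window and 5.18 per 100 kb in the rest of the stretch. Etv5 regions numbered 7.34 and 2.59 per 100 kb. The median length was 722 bp in the window and 647 bp in the rest of the stretch for Etv4, and 525 and 598 bp for Etv5. Regions in the window were thus denser in both lists, and their median was longer in the Etv4 list only.

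Among 2737 bins of 1 Mb in the nuclear genome, the stretch ranked 2 by Etv4 regions (70, beside a mean of 4.98) and 3 by Etv5 regions (33, beside a mean of 3.03). Without the regions near the genes it held 44 Etv4 and 22 Etv5 regions, and its ranks became 4 and 9. The density of this megabase therefore did not rest on the surroundings of Malat1 and Neat1 alone.

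In the 500 bp around the midpoint, the ETS pattern occurred in 2 of the 26 Etv4 regions (7.69%, interval 0.946 to 25.1%), beside 10.2% in the whole list. Over whole regions it occurred in 4 of the 26 (15.4%, interval 4.36 to 34.9%), beside 11.6%, so the order against the list turned with the length searched. In the rest of the stretch, again in 500 bp, it occurred in 10 of 44 Etv4 regions (22.7%, interval 11.5 to 37.8%). None of the 11 Etv5 regions held it, which allows a share of up to 28.5%, beside 7.92% in the whole list. With the pattern written backwards (TGAAGGAC or TGAAGGCC), 2 of the 26 Etv4 regions also matched (7.69%), beside 3.59% in the whole list. For both lists the interval at the locus contained the value of the whole list.

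Inside the genes, the longer ETS pattern had 0 matches in Malat1 and 2 in Neat1, or 0.0963 per kb in Neat1, beside 0.0970 per kb in the stretch. The GGAA core occurred 85 times in Malat1 and 204 times in Neat1. That is 12.2 and 9.82 per kb, beside 10.7 per kb in the stretch. In Malat1, 64 of the 85 cores (75.3%) lay in the Etv4 regions that covered 82.0% of the gene. In Neat1, 83 of the 204 cores (40.7%) lay in the regions that covered 38.0% of it. The share of cores in Etv4 regions was thus close to the share of sequence covered.

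The AP-1 pattern, TGAGTCA or its reverse complement TGACTCA, is the recognition sequence of Fos and Jun dimers. It occurred in the 500 bp around the midpoint of 6 of the 26 Etv4 regions (23.1%, interval 8.97 to 43.6%), beside 37.4% in the whole list, and of 4 of the 11 Etv5 regions (36.4%, interval 10.9 to 69.2%), beside 35.7%. Of the 12 Etv4 regions that overlapped either gene, 1 held it there. All 4 AP-1 sites that lay in regions of both lists were outside Malat1 and Neat1, and they are shown with 20 bases on either side because each lay in sequence common to both lists. The other 6 overlaps of the lists at the locus, including those over both gene starts, held no AP-1 site in their common part.
Ltbp3 (chr19:5746172-5746178, plus strand): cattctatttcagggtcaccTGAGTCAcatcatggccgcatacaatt
Between Malat1 and Neat1 (chr19:5818065-5818071, plus strand): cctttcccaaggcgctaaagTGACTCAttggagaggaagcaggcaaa
Frmd8os (chr19:5848620-5848626, plus strand): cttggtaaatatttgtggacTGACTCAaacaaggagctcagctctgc
Slc25a45 (chr19:5878097-5878103, plus strand): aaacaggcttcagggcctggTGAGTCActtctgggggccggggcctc
A single site of the cyclic AMP response element TGACGTCA lay in the Etv4 region over the start of Neat1, 538 bp upstream of that start.
Upstream of Neat1 (chr19:5846016-5846023, plus strand): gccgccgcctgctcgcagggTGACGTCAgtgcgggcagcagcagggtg
This site was outside the Etv5 region, which ended 40 bp before it.

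Genes for proteins of the bodies in which the RNAs reside were examined alongside. Of 16 genes for paraspeckle proteins, 10 had an Etv4 region in the gene or in the 2 kb before it (62.5%) and 7 had an Etv5 region (43.8%), beside 24.9 and 16.5% of all protein-coding genes. None had 30% or more covered by Etv4. The largest shares were in Hnrnpa1 (19.8%), Rbm14 (9.89%), Tardbp (6.23%) and Hnrnpk (4.88%), all RNA-binding proteins. Of the genes for the core proteins that bind Neat1, Sfpq had a region in both lists, and Nono and Pspc1 had none in either. Of 18 genes for nuclear speckle proteins, 6 had an Etv4 region (33.3%) and 5 an Etv5 region (27.8%). Their largest Etv4 shares were in the splicing factor genes Srsf2 (15.7%), Srsf5 (10.4%), Srsf1 (9.51%) and Srsf7 (8.05%). In none of these genes did Etv4 regions reach the cover seen in Malat1 or Neat1.

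Broad cover also occurred in other genes of non-coding RNAs. Of 29 named long non-coding RNA genes found in the annotation, 15 had an Etv4 region (51.7%) and 10 an Etv5 region (34.5%), beside 13.0 and 8.68% of all long non-coding genes. Etv4 regions covered at least 30% of 10 of them, led by the RNA component of RNase MRP, Rmrp (100%), and the snoRNA host genes Snhg8 (100%), Gas5 (91.6%) and Snhg1 (64.9%). Etv5 regions covered at least 30% of 2 of them, Epb41l4aos (53.2%, beside 33.2% by Etv4) and Rmrp (33.5%). Most of the 10 genes covered by Etv4 are short, and 1 region filled Rmrp (0.281 kb) and Snhg8 (0.853 kb), beside a median Etv4 region of 589 bp. A share over all genes of any length is not given beside these 10. Of the 29 genes, 17 were at least 5 kb long, and 2 of these had 30% or more covered, Snhg3 and Mir22hg (38.3%). That stands beside 14 of 5611 long non-coding genes and 0.171% of all genes of that length. Xist, Tsix, Kcnq1ot1, H19, Meg3 and Tug1 had no region of either list.

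Of 30 protein-coding genes chosen as sources of abundant RNAs in epithelial lines, 29 had an Etv4 region (96.7%) and 19 an Etv5 region (63.3%), beside 24.9 and 16.5% of all protein-coding genes. Etv4 regions covered at least 30% of 9 of them, led by the actin genes Actb (95.1%) and Actg1 (71.9%), the ferritin light chain gene Ftl1 (66.2%) and the tubulin gene Tubb5 (54.1%). These named genes are shorter than 5 kb, and a share over all genes of any length is not given beside the 9. Among the 20 of at least 5 kb, 3 had 30% or more covered, Hspa8 (41.6%), S100a6 and Eef2 (32.3%), beside 0.171% of all genes of that length. No gene of this list had 30% covered by Etv5. The list was drawn up from general knowledge but with earlier results of these data known, so its counts are no independent evidence, and RNA levels in these cells were not used here.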

How the data were processed

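ChIP-seq libraries for Etv4 and Etv5 (1 each) were made by the authors from EpRas cells with 15 cycles of PCR. Reads were mapped to mm10 with Bowtie, per the labels' processing notes, and regions were called per library with the one-sample mode of CisGenome (window of 300 bp, p threshold of 0.1), without an input library. Local copy number, mappability or open chromatin is therefore not removed. The deposited BED score is 1000 in every region and was not used. The deposited files give positions and an unexplained region number, used only for order. Read counts are not part of the lists. Positions are printed counting from 1, and lengths may be off by 1 bp.

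Gene spans came from GENCODE release M21 and sequence from GRCm38. Regions overlapped when at least 1 bp was common. The share of a gene covered was set beside all protein-coding and long non-coding nuclear genes of at least 5 kb. Multicopy sequence was the share of 36-base sequences occurring more than once in the assembled chromosomes. Patterns were searched on both strands. Intervals are exact (Clopper-Pearson) 95% binomial intervals. The functions were tested on simulated data.

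The members, gene lists and patterns were chosen with earlier results of these data known. Named genes were all genes within 50 kb, the 10 with the largest Etv4 share and the 5 with the largest Etv5 share, the 5 most like Malat1 and like Neat1, and up to 4 of each list by Etv4 share. Of these, 2 genes are not reported here. Other genes were named after their values were seen. No test between the antibodies was made because each had 1 library. Binomial intervals were set beside the share over the whole list as a description over regions, which are not replicates. Alternatives were the longer or first 50% of each list, equal numbers, merging within 300 bp, other overlap rules, distances, gene sets, bins and patterns. Computations used Python 3.11.15, numpy 2.4.6, scipy 1.17.1, numba 0.67.0 and matplotlib 3.10.9.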

Additional observations from a re-analysis of the deposited data

How the results depend on the processing

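The region counts, covered shares, overlaps, ranks and ETS shares were recomputed under the other settings. Of 94 recomputed values, 67 stayed within 1.5 times or, for shares of regions, within the binomial interval of the reported value. The share of Malat1 covered by Etv4 stayed between 77.7 and 86.7%, and that of Neat1 between 31.5 and 39.0%. Merging regions within 300 bp left 3 Etv4 regions in Malat1. With the longer or the first 50% of each list, Malat1 held 0 Etv5 regions (0% covered), Neat1 held 2 Etv4 regions (also 2 when the Etv4 list was cut to the number of Etv5 regions), and the locus held 16 or 15 Etv4 regions and 5 Etv5 regions. Requiring 50% of both regions in common gave 15.4% of Etv4 and 36.4% of Etv5 regions as overlapping, and midpoints within 250 bp gave 54.5% for Etv5. By base pairs the stretch ranked 5 for Etv5. Without the regions near the genes, an alternative chosen after seeing the data, it ranked 4 for Etv4 and 9 for Etv5. In the 500 bp around the midpoint, the strict ETS pattern occurred in 0% of the Etv4 regions. With the whole region searched, the share with the ETS pattern rose from 7.69 to 15.4%. Among genes of at least 2 kb, Malat1 stood in place 19 and Neat1 in place 95 of 28551 by Etv4 share, and among long non-coding genes of at least 5 kb in places 2 and 10 of 5611. The lower counts under stricter lists follow from fewer regions, and the unknown depth of the libraries limits each comparison between the antibodies. No paired analysis was possible because there was only 1 library for each antibody.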

Other observations

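The pattern of RUNX factors, TGTGGTT or TGTGGTC on either strand, was also counted. It occurred 16 times in Neat1 (0.770 per kb) and 2 times in Malat1 (0.286 per kb), beside 0.477 per kb in the stretch of 1 Mb. Of the 16 sites in Neat1, 5 lay in Etv4 regions and 11 in sequence without one. Whole Etv4 regions of the locus held it in 9 of 26 cases (34.6%, exact 95% binomial interval 17.2 to 55.7%), beside 28.3% in the whole list. In the 500 bp around the midpoint the share was 15.4% (4 of 26), beside 24.7%, so the order turned with the length searched. It was not found in the 11 Etv5 regions of the locus, which allows a share of up to 28.5%, beside 25.0% in the whole list.

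When the stretch was divided into 20 bins of 50 kb, the bin that holds the starts of both genes (chr19:5800001-5850000) contained 16 Etv4 regions, which covered 32.9% of it. The next highest cover was 14.7%, in the bin with part of Ltbp3 (chr19:5700001-5750000). For Etv5 the same bins ranked highest, with 9.58 and 6.17% covered. In 4 of the 20 bins the Etv4 list had no region.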
